A study of Mus musculus with 72 samples.

Results

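The electrons that nutrients yield are passed along 4 protein complexes in the inner membrane of the mitochondrion, and the proton gradient this builds drives complex V, the ATP synthase. Complex I takes electrons from NADH, complex II from succinate, complex III hands them to cytochrome c and complex IV to oxygen. The subunits are encoded in both genomes of the cell: a small set of membrane subunits of complexes I, III, IV and V is read from mitochondrial DNA as long polycistronic transcripts of both strands, whereas all others, and every subunit of complex II, are read from nuclear genes and imported. Neurons depend on this pathway for most of the ATP spent on ion gradients and transmitter release.

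To describe how these genes are used by Pet1-lineage neurons of the mouse dorsal raphe nucleus (DR), a largely serotonergic group, members were chosen by symbol: genes whose names begin as the Nduf, Sdh, Uqcr, Cox4 to Cox8 and Atp5 families do, and the mitochondrially encoded mt-Nd, mt-Co, mt-Cytb and mt-Atp genes, with a UMI (a unique molecular identifier, counted once per captured RNA molecule) in at least 10 cells of the 10X table. This gave 102 of the 17231 genes, of which 89 are nuclear and 13 mitochondrial. Of the nuclear genes, 36 encode subunits of complex I, 4 of complex II, 8 of complex III, 16 of complex IV and 15 of complex V, and 10 encode assembly factors or related proteins. The mitochondrial genes encode 7 subunits of complex I, 1 of complex III, 3 of complex IV and 2 of complex V. One further symbol that matched, Cox4i2, had a UMI in 5 cells and was no member.

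Single cells were sequenced in 2 ways. The 10X table holds 2350 sorted cells of the whole DR, pooled from mice carrying Pet1::Flpe+/- with hM3Dq+/+ (run 1, mean age postnatal day 65.5) and mice carrying En1::cre+/-, Pet1::Flpe+/- and RC::FrePe+/- (run 2, mean age day 59). The other 70 cells were picked by hand from DR subdomains into 8 groups, all of which share Pet1::Flpe+/- and the dual-recombinase reporter RC::FrePe+/- and differ in the Cre allele and the subdomain. Sert::cre+/- was used for the dorsolateral (10 cells), dorsomedial (9), ventromedial (8) and caudal DR (6), at day 63 or 90. P2ry1::cre+/- marked 10 caudal cells at days 62 to 74, Npy2r::cre+/- marked 10 caudal and 9 rostral cells at days 77 or 87, and Crh::cre+/- marked 8 rostral cells at days 83 or 119. En1::cre restricts the labelled lineage to descendants of cells that expressed En1, at the front of the hindbrain. The alleles label by descent, so a labelled cell need not express the driver gene at the time of sorting. Cells of the 10X table carry no animal, and the labels name no animal for the manual cells, so each was treated as 1 sample or 1 sample per group. No test was made and no p-value is given, and differences are described with intervals that cover counting error only.

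Cells of the 10X table had between 12320 and 134079 UMIs, with a median of 59646. Fev, the gene of PET1, was detected in 2350 of 2350 cells, Tph2, the serotonin-synthesis enzyme, in 2339 and Slc6a4, the serotonin transporter, in 2309. All 3 had reads in 70 of 70 manual cells. By the digit that closes each barcode, 869 cells form barcode set 1, and the other 1481 form barcode set 2. No source ties that digit to a run, and run, genotype and sex cannot be told apart from it. Before deposit, 10X libraries with absent or low Fev were removed by the authors, so its detection in every 10X cell was fixed in advance. Libraries with a high mitochondrial share were removed as well, which bounds the upper end of the mitochondrial values below.

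The mitochondrial genes took 6.65% of all UMIs of the 10X cells and the nuclear genes 4.19%. In the median cell the share was 6.41% for the mitochondrial genes (range 2.43% to 14.7%) and 4.19% for the nuclear genes (range 1.57% to 6.95%). The mitochondrial share was the higher of the 2 in 2059 of 2350 cells (87.6%), with 77.3% of cells in the first barcode set and 93.7% in the other. Both parts were detected widely: 24 nuclear and 12 mitochondrial genes had a UMI in every cell. Because UMIs count 3' ends, levels of different genes in this table do not scale with transcript length, and they are given as CPM (counts scaled to a common total of 1e+06) of the summed cells.

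Complex I had similar shares from both genomes, with 1.39% of UMIs from 36 nuclear genes and 1.48% from 7 mitochondrial genes. Of the mitochondrial subunits, all of which lie in the membrane arm, mt-Nd4 had 5124 CPM, mt-Nd2 3200, mt-Nd1 2790, mt-Nd3 1563, mt-Nd4l 1092 and mt-Nd5 990 CPM. The last, mt-Nd6, is the only member read from the other strand of mitochondrial DNA, and had 58.3 CPM with a UMI in 2034 cells. The nuclear subunits ran within a narrower band, led by the accessory subunits Ndufs5 at 705 CPM, Ndufab1, the mitochondrial acyl carrier protein, at 674 CPM and Ndufc1 at 673 CPM. The lowest were Ndufs1, the largest iron-sulfur subunit of the NADH-oxidising arm, at 61.7 CPM and Ndufa9 at 44.4 CPM.

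Complex II, which is also the succinate dehydrogenase of the Krebs cycle, took 0.0582% of UMIs. The flavoprotein Sdha had 220 CPM and the iron-sulfur subunit Sdhb 211 CPM, whereas the membrane anchors Sdhd and Sdhc had 88.0 and 63.3 CPM. In complex III, cytochrome b (mt-Cytb) alone had 7160 CPM, against 4235 CPM for the 8 nuclear genes together. The small subunits Uqcrh (1077 CPM), Uqcrq (810 CPM) and Uqcr11 (771 CPM) led the nuclear genes, and the core proteins Uqcrc2 (123 CPM) and Uqcrc1 (109 CPM) were lowest.

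Complex IV was the largest of the 5, with 1.28% of UMIs from nuclear and 2.85% from mitochondrial genes. Its catalytic subunits mt-Co2 (11091 CPM), mt-Co3 (9127 CPM) and mt-Co1 (8241 CPM) held ranks 3 to 5 among all genes of the table. Cox8a (1813 CPM), Cox6c (1789 CPM) and Ndufa4 (1591 CPM), a protein once assigned to complex I that is a subunit of cytochrome c oxidase, led the nuclear genes of the pathway. Complex V had 1.61% from 2 mitochondrial genes, almost all of it from mt-Atp6, the proton channel subunit, which at 15550 CPM (95% interval 15529 to 15571) was second among all genes. The overlapping mt-Atp8 (chrM:7766-7969, against chrM:7927-8607 for mt-Atp6) had 549 CPM. As UMIs count 3' ends, an RNA that spans both genes would be counted on mt-Atp6. The 2 values therefore cannot be read as levels of separate RNAs. The same limit holds for mt-Nd4l (chrM:9877-10173), which overlaps the start of mt-Nd4 (chrM:10167-11544). Nuclear subunits of complex V took 0.957% and were the most even, from Atp5o, the subunit of the stalk that holds the catalytic head, at 340 CPM and Atp5d at 388 CPM to Atp5h (858 CPM), Atp5l (911 CPM) and Atp5j (942 CPM). Assembly factors and related proteins took 0.0851% of UMIs. Cox7a2l, which joins complexes III and IV into supercomplexes, had 389 CPM, the complex I assembly factors Ndufaf2 and Ndufaf3 had 111 and 81.3 CPM, and Ndufaf6 and Atp5s were lowest at 26.9 and 24.2 CPM. In the plot of member levels, these differences between complexes are shown gene by gene.

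**Figure D1:**
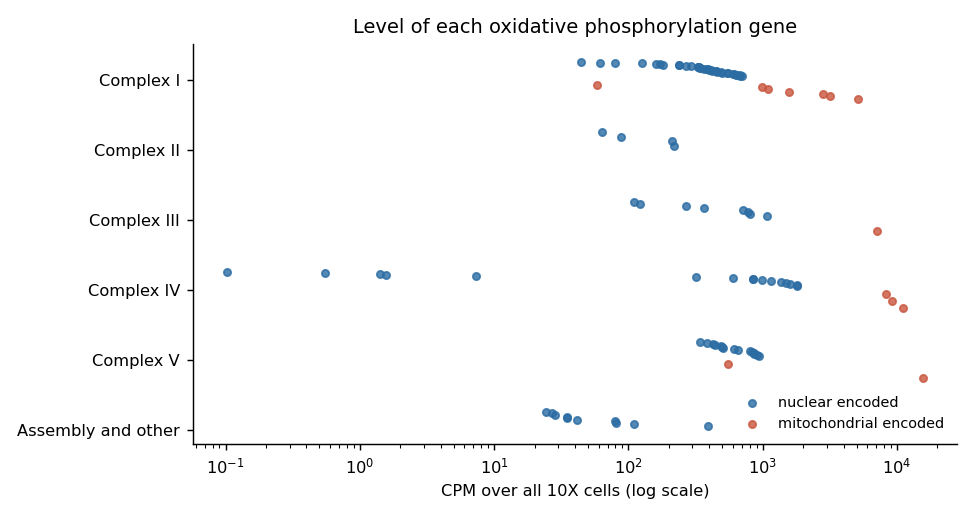
Level of each of the 102 genes in 2350 cells of the 10X table, as CPM on a log axis, in rows by complex. Each point is 1 gene, blue for nuclear and red for mitochondrial genes; 12 of 13 mitochondrial genes stand above 500 CPM, and 5 nuclear genes of complex IV stand below 10 CPM.

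Several subunits of complex IV exist as paired isoforms, of which one is known from muscle, testis or hypoxic tissue. The common isoform held nearly all UMIs in each case. Cox6a1 exceeded the heart and muscle form Cox6a2 by 3111-fold (1854 to 5690), Cox6b1 exceeded the testis form Cox6b2 by 597-fold, Cox7b exceeded Cox7b2 by 382-fold and Cox7a2 exceeded the muscle form Cox7a1 by 157-fold (147 to 167). Ndufa4 exceeded Ndufa4l2, a hypoxia-inducible relative, by 2915-fold. Cox4i1 had 1372 CPM, while Cox4i2 was no member. Of the minor forms only Cox7a1 was seen in many cells, with 7.34 CPM and a UMI in 678 cells. Cox6a2, at 0.103 CPM, had a UMI in 12 cells. The 3 genes of the identical c-ring protein of complex V were used side by side, with a ratio of Atp5g3 to Atp5g1 of 0.978 (0.969 to 0.986) and of Atp5g3 to Atp5g2 of 1.90.

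To compare how the genes vary from cell to cell at 1 depth, each cell was thinned to 20000 UMIs, which left 2297 cells and dropped 53 shallower ones. The coefficient of variation (CV) beyond counting error had a median of 24.6% over the 77 nuclear genes with a mean of at least 1 UMI, beside 24.7% over all 3575 such genes of the table and 19.4% over cytosolic ribosomal protein genes. The median of the mitochondrial genes was 32.8%. Both barcode sets were pooled for these values, so differences between the sets, given below, are part of them. Among members with a mean of at least 1 UMI the widest were mt-Nd6 (79.1%), mt-Nd3 (48.5%), mt-Nd5 (47.7%), Uqcrb (45.0%) and Ndufv1 (41.7%). Sdhc did not vary beyond counting error, and Ndufaf4 (12.8%) and Uqcrfs1, the Rieske iron-sulfur protein (15.7%), were the next narrowest. Without that minimum, the rare isoforms Ndufa4l2 (278%), Cox6b2 (211%), Cox7b2 (202%) and Cox7a1 (95.1%) had higher nominal values, from few UMIs.

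Genes of the same genome were high in the same cells. Across the 2350 cells, which share library, depth and the denominator of each share, Spearman's rho between the mitochondrial shares of complexes I, III, IV and V was 0.75 to 0.93, and between the nuclear shares of these complexes 0.60 to 0.83. Between the nuclear and the mitochondrial share of 1 complex it was -0.20 for complex I, 0.18 for complex III, 0.20 for complex IV and 0.07 for complex V, whereas within barcode set 1 all 4 were negative, from -0.39 for complex I to -0.14 for complex IV. The summed nuclear and mitochondrial shares gave -0.10 over all cells, -0.36 within the first barcode set and -0.10 within the other. A share of a fixed total pushes these values down, and with all mitochondrial UMIs taken out of the nuclear denominator the value was 0.03, or -0.29 and 0.03 in the sets. Gene by gene, mt-Co2 (0.93), mt-Atp6 (0.91) and mt-Cytb (0.91) followed the rest of the mitochondrial genes most closely, mt-Nd4l (0.37) and mt-Atp8 (0.37) weakly, and the sparse mt-Nd6 had -0.06. Among nuclear genes, Cox5a (0.74), Atp5j2 (0.72) and Ndufa5 (0.70) followed the other nuclear members most closely. Cox4i1 (0.20) and Ndufa6 (0.14) did so weakly, and Sdha was at -0.06.

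The promoters of the nuclear genes were searched for the letters of 4 elements in the 300 bases from 250 before to 50 after each RefSeq start site (GRCm38.p6). Of the 89 nuclear genes, 75 had a promoter in the table used, 3 of them under another symbol. Both strands were searched, and matches of different elements may overlap. The binding word of nuclear respiratory factor 1 (NRF1), known as an activator of respiratory genes, was present for 25.3% of the 75 genes and for 5.19% of all 27025 genes of the table. The ETS word CCGGAAG, the core bound by the factor GABP, was present for 22.7% against 9.93%, and AAGATGG, a YY1 word, for 16% against 7.28%. TATAAA, the TATA box, was present for 8% against 15.7%. All 27025 genes served for comparison and were not matched to the members in level or in GC content. A match describes letters in this window and does not show binding, and its part in the shared variation between cells was not tested. The NRF1 word occurs more than once in Cox6a1, as in Sdha, Ndufb4 and Uqcrc1, and Atp5h had the highest UMI level among members with a match. Promoters are printed for Cox6a1 and Atp5h, each read in the direction of its gene, with the NRF1 word in capitals. They lie on the minus strand at chr5:115348909-115349208 and chr11:115419870-115420169.
Cox6a1: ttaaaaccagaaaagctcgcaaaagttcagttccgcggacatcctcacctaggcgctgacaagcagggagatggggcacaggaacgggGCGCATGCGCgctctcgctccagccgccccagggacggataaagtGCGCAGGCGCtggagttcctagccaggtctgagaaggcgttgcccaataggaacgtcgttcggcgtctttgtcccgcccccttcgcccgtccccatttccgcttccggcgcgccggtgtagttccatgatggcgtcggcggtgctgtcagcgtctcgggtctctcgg
Atp5h: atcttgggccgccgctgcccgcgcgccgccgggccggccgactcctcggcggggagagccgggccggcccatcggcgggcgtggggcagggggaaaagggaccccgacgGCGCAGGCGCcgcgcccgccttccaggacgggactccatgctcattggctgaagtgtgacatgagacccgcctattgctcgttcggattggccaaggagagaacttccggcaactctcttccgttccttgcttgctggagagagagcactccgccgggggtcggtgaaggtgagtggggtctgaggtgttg

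The mitochondrial genes were higher in barcode set 2. All 13 had a log2 ratio above 0, beside 42.8% of all genes and a median of -0.04 over all genes, with a summed log2 ratio of 0.44, from 0.06 for mt-Nd6 to 0.55 for mt-Nd1, 0.60 for mt-Co3 and 1.31 for mt-Nd3, which had 798 CPM in set 1 and 1980 CPM in set 2. The summed nuclear genes differed by 0.07, and their median share per cell was 4.04% in set 1 and 4.27% in set 2. Of the nuclear members with at least 100 UMIs, those past a log2 ratio of 0.5 were Atp5k, a subunit of the membrane part of ATP synthase, which was higher in set 2 (0.71, 436 and 713 CPM; beside 3.16% of all genes), and the rare Cox7b2, which was lower (-0.63; beside 6.12%). The summed ratios of the contrasts below are therefore also given within the sets.

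Cells ordered by depth differed in the mitochondrial share in barcode set 2, whereas in set 1 the shallowest cells alone stood above the rest. Over 5 equal groups of cells by total UMIs, the median mitochondrial share went from 5.62% through 5.98%, 6.33% and 6.77% to 7.21%, whereas the nuclear share stayed between 4.11% and 4.28%. In barcode set 2 the mitochondrial median ran from 5.81% in the shallowest to 7.88% in the deepest group. In barcode set 1 it was 6.15% in the shallowest group and 4.94% to 5.33% in the other 4. That shallowest group of set 1, 174 cells of 12320 to 34821 UMIs, also had the lowest nuclear median, 3.39% with a 10th percentile of 2.03%, against 4.01% to 4.17% in the deeper groups of the set. Of the 5 groups, the deepest over the shallowest gave a log2 ratio of 0.20 for the mitochondrial genes (-0.27 in set 1 and 0.36 in set 2). For the nuclear genes it was 0.03 (0.23 and -0.08). Neither direction held in both sets, and Spearman's rho of depth with the mitochondrial share was -0.04 in set 1 and 0.37 in set 2.

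With the level of Tph2 the mitochondrial share went one way in both sets. Over 5 equal groups by Tph2 CPM, from a median of 1158 to one of 4256 CPM, the median mitochondrial share was 5.11%, 6.02%, 6.58%, 7.01% and 7.60%. In set 1 the ends were 4.49% and 6.11%, and in set 2 they were 5.84% and 7.97%. The nuclear share was 4.44% in the lowest group and 4.09% to 4.15% in the others. Spearman's rho between Tph2 and the mitochondrial share was 0.41 over 2350 cells (0.38 in set 1 and 0.46 in set 2), and that between Tph2 and the nuclear share was -0.15 (-0.25 and -0.11). Depth moved with Tph2, from a median of 39740 UMIs in the lowest group to 69248 in the highest. Within 3 equal groups of depth, the value for the mitochondrial share was 0.56 in the shallowest, 0.30 in the middle and 0.18 in the deepest, and that for the nuclear share -0.44, 0.04 and 0.12. The plot of depth and Tph2 groups shows that the mitochondrial share followed Tph2 in both sets and depth in set 2 alone.

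**Figure D2:**
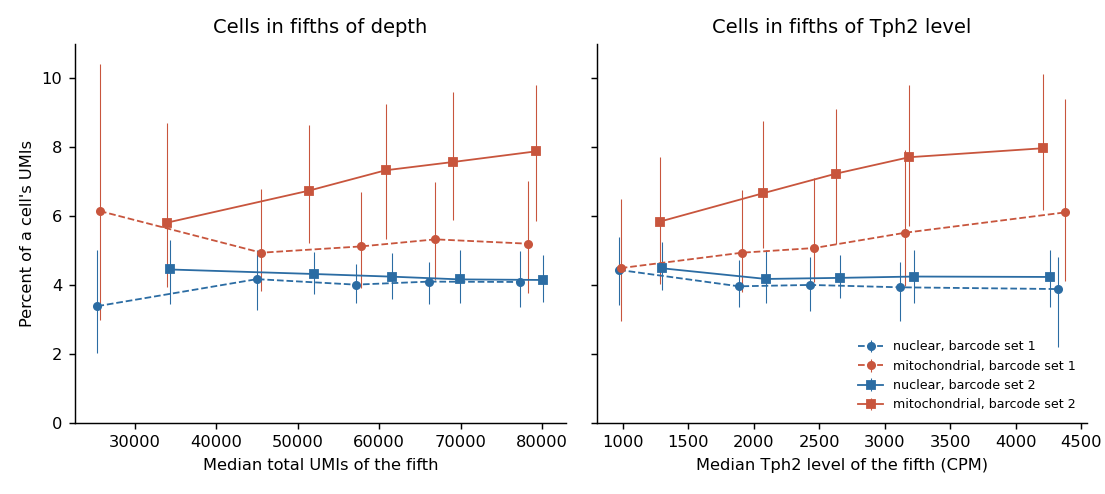
Median share of a cell's UMIs on the nuclear (blue) and mitochondrial (red) genes in 5 equal groups by total UMIs (left) and of Tph2 CPM (right), with barcode set 1 as dashed lines with circles and set 2 as solid lines with squares; bars run from the 10th to the 90th percentile of cells. In the shallowest group of set 1 the mitochondrial median is 6.15% and the nuclear median 3.39%, whereas in set 2 the mitochondrial median goes from 5.81% to 7.88% with depth.

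The cells lowest in Tph2 had a lower mitochondrial and a higher nuclear median share than the other cells, with overlapping ranges. At under 500 CPM of Tph2 there were 131 cells, 64 of set 1 and 67 of set 2, and 90 of all cells lay between 0.5 and 2 times that limit. Their median mitochondrial share was 4.04%, against 6.56% in the other 2219 cells, and their median nuclear share was 4.61%, against 4.16%. The log2 ratio of summed CPM was -0.61 (-0.62 to -0.60) for the mitochondrial genes, with -0.53 and -0.58 in the sets, and 0.18 (0.17 to 0.18) for the nuclear genes, with 0.28 and 0.10. These cells were shallow, with a median of 27329 UMIs against 60747, and 125 of the 131 fell in the shallowest of the 3 depth groups. Within that group the ratios were -0.62 and 0.21. In the middle depth group, 5 cells gave 0.08 for the mitochondrial and -0.10 for the nuclear genes, and the 1 cell of the deepest gave 0.01 for both, which are too few cells to compare.

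Of the 100 members with at least 100 UMIs, 20 were higher by a log2 ratio of at least 0.5 in these cells, beside 27.3% of all genes tested, and 7 were lower, beside 13.9%. The median over members was 0.20 and that over all genes 0.18, so a positive median was not particular to the members. All 7 that were lower were mitochondrial: mt-Co2 (-0.76), mt-Cytb (-0.74), mt-Nd3 (-0.71), mt-Atp6 (-0.68), mt-Co3 (-0.62), mt-Co1 (-0.60) and mt-Nd4 (-0.53). For mt-Co2 this was 6608 CPM in the class and 11219 CPM outside it. Smaller differences were those of mt-Nd5 (-0.47), mt-Nd1 (-0.29), mt-Atp8 (-0.26), mt-Nd2 (-0.23) and mt-Nd4l (-0.21), and mt-Nd6 alone was above 0 (0.20, 0.02 to 0.39).

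The 20 that were higher were all nuclear. They included Ndufv1, the NADH-binding subunit of complex I (0.91, 147 against 78.1 CPM), Uqcrb, a ubiquinone-binding subunit of complex III (0.91, 670 against 356 CPM), Ndufa9 (0.90, 80.7 against 43.4 CPM) and the complex III core protein Uqcrc2 (0.79). The iron-sulfur subunits Ndufs8 (0.77) and Ndufs7 (0.77) followed. All of these were above 0 in both sets. Cox7b2 had the highest value (0.93), from 11 UMIs and with an interval of -0.10 to 1.80. The lowest nuclear member was Ndufv3, a further subunit of the NADH-binding arm, at -0.48 (-0.51 and -0.44 in the sets), followed by Cox6b2 (-0.41). Immediate early genes, which neurons and dissociated tissue turn on within minutes, were also higher in this class: 8 of 8 passed the same fold, with a summed level of 871 CPM against 244 to 284 CPM in the other 5 classes described below. Of the oligodendrocyte markers, Mbp, a myelin protein gene, was higher in these cells than in all others (1.24), while Mog and Mag were near 0 over all cells and Olig1 was not listed. Mbp had 50.3 CPM in this class, with 34.2 CPM in its median cell, against 19.4 to 29.3 CPM in the other 5 classes, with at most 18.0 CPM in their median cells. The median cell of each class had no UMI of the astrocyte, microglia, vessel or blood markers. Their part in the result was not tested.

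Gad2, which makes GABA, and Slc17a8, which encodes the vesicular glutamate transporter VGLUT3, divide these neurons into broad classes, with a limit of 50 CPM used for both. The limit is that of about 3 UMIs at the median depth, and cells between 0.5 and 2 times the limit numbered 411 for Gad2 and 289 for Slc17a8. The members were lower in cells with Gad2 and higher in cells with Slc17a8, in both cases by little and in nearly all of the genes.

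In the 1155 cells with Gad2 the summed log2 ratio to the other 1195 cells was -0.11 for the nuclear genes (-0.12 and -0.10 in the sets) and -0.04 for the mitochondrial genes (-0.06 in each). Of the 100 members, 88 were below 0, and their median was -0.10 against -0.01 over all genes. None was higher by 0.5, beside 4.68% of all genes, and 1 was lower, beside 5.23%. That gene was Cox7a1 (-0.51, -0.69 to -0.32). The next were Cox7b2 (-0.35, -0.75 to 0.05), and the complex I and III subunits Ndufa13 (-0.28), Uqcrb (-0.25) and Ndufa12 (-0.25). The highest were Cox6b2 (0.11, -0.31 to 0.54), Atp5s (0.10), mt-Nd3 (0.09), Ndufa10 (0.06) and Atp5sl (0.06). Within the 3 depth groups the nuclear ratio was -0.14, -0.11 and -0.09, and the mitochondrial ratio was 0.03 in the shallowest and -0.07 and -0.08 in the deeper groups.

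In the 1138 cells with Slc17a8 the summed ratio was 0.11 for the nuclear genes (0.13 and 0.09 in the sets) and 0.11 for the mitochondrial genes (0.05 and 0.11). Of the 100 members, 91 were above 0, and their median was 0.10 against 0.02 over all genes. Past 0.5 stood 1 gene that was higher, beside 7.68% of all genes, and none that was lower, beside 5.88%. Again this was Cox7a1 (0.71, 0.53 to 0.90, with 0.84 and 0.64 in the sets), which had 9.23 CPM in the class and 5.63 CPM outside it. Ndufa13 (0.29), a subunit also known as GRIM-19, Ndufa12 (0.26), mt-Atp8 (0.21), Uqcrb (0.21) and the assembly factor Ndufaf2 (0.21) followed, and Ndufa10 (-0.08), Ndufaf7 (-0.06), Ndufaf5 (-0.04), Ndufa6 (-0.02) and Ndufaf3 (-0.01) were lowest. Within the 3 depth groups the nuclear ratio was 0.16, 0.12 and 0.08, and the mitochondrial ratio was -0.06 in the shallowest and 0.18 and 0.13 in the deeper groups. The Gad2 and Slc17a8 contrasts share most cells and are not independent of each other.

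Cells with Met, the receptor of hepatocyte growth factor, at 50 CPM or more numbered 97, had a median depth of 45593 UMIs against 60444, and 38 cells lay between 0.5 and 2 times the limit. The nuclear genes were higher in them, with a median share of 4.68% against 4.17% and a summed log2 ratio of 0.15 (0.14 to 0.16, with 0.12 and 0.17 in the sets). The ratio was 0.17 within the shallowest depth group, 0.14 within the middle one and -0.03 for the 3 cells of the deepest. The mitochondrial genes gave 0.01, with 0.11 in set 1 and -0.03 in set 2, and 0.12, 0.05 and 0.12 within the 3 depth groups. Of the 100 members, 3 were higher by 0.5, beside 12.9% of all genes, and 2 were lower, beside 19%, and the median was 0.17 against 0.04 over all genes. In a class of this size genes of few UMIs can pass the fold by counting error alone, and the shares over all genes include such genes. The 3 were all subunits of complex I: Ndufa13 (0.61, 0.56 to 0.66; 820 against 538 CPM), Ndufs8 (0.56) and Ndufb6 (0.50). Ndufb9 (0.49) and Ndufa12 (0.46) lay just below the limit. The 2 that were lower were rare isoforms with wide intervals, Cox6b2 (-1.09, -3.38 to 0.48, from 3 UMIs) and Cox7a1 (-0.59, -1.27 to 0.02). The complex I assembly factor Ndufaf1 had -0.48 (-0.77 to -0.21), Atp5sl -0.23 and Ndufa10 -0.22. In the plot of member contrasts, most mitochondrial genes lie below most nuclear ones for Tph2, with overlap between them, and lie among them for the other 3 genes.

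**Figure D3:**
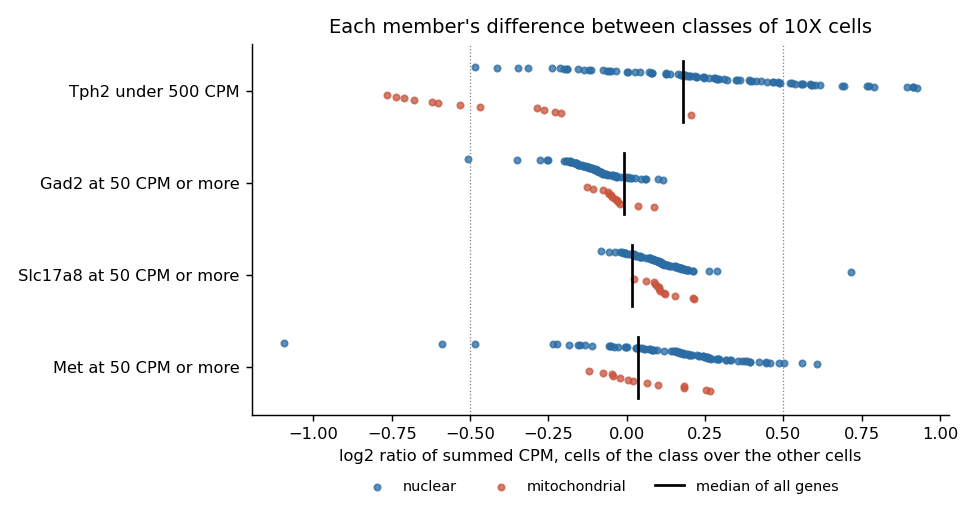
Log2 ratio of summed CPM between the cells of a class and all other cells, for the 100 members with at least 100 UMIs, in 1 row per contrast; blue points are nuclear and red points mitochondrial genes, black lines mark the median over all genes and dotted lines a ratio of 0.5. For Tph2 under 500 CPM, 12 of 13 mitochondrial genes lie below 0 and 69 of 87 nuclear genes above 0.

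When the limits were crossed, cells fell into 6 classes that do not overlap. The nuclear share was highest in the Met cells (97 cells, median 4.68%) and the cells low in Tph2 (131, 4.61%), followed by the cells with Slc17a8 alone (681, 4.36%), with both Gad2 and Slc17a8 (241, 4.15%), with neither (321, 4.11%) and with Gad2 alone (879, 3.98%). In barcode set 1 the cells low in Tph2 (4.74%) stood above the Met cells (4.51%), and the cells with both genes were lowest (3.79%, beside 3.83% with Gad2 alone). The cells with neither stood above those with both in each set, at 3.92% in set 1 and at 4.28% against 4.26% in set 2. The mitochondrial share was highest with Slc17a8 alone (7.06%), then in Met cells (6.84%), with both (6.60%), with Gad2 alone (6.33%) and with neither (6.00%), and lowest in cells low in Tph2 (4.04%). The order above the lowest class did not hold within the sets: in set 1 the Met cells (5.72%) stood above those with Slc17a8 alone (5.54%), and the cells with neither (5.29%) above those with Gad2 alone (5.10%), and in set 2 the cells with both (7.29%) stood above the Met cells (7.18%). Cells low in Tph2 thus had more UMIs on nuclear than on mitochondrial genes in the median, with a log2 ratio of -0.21, against 0.49 to 0.70 in the other classes. The ranges between the 10th and 90th percentiles overlapped between all classes for both shares. In the plot of classes, cells low in Tph2 were the lowest mitochondrial class in both barcode sets, at 3.59% and 4.29%.

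**Figure D4:**
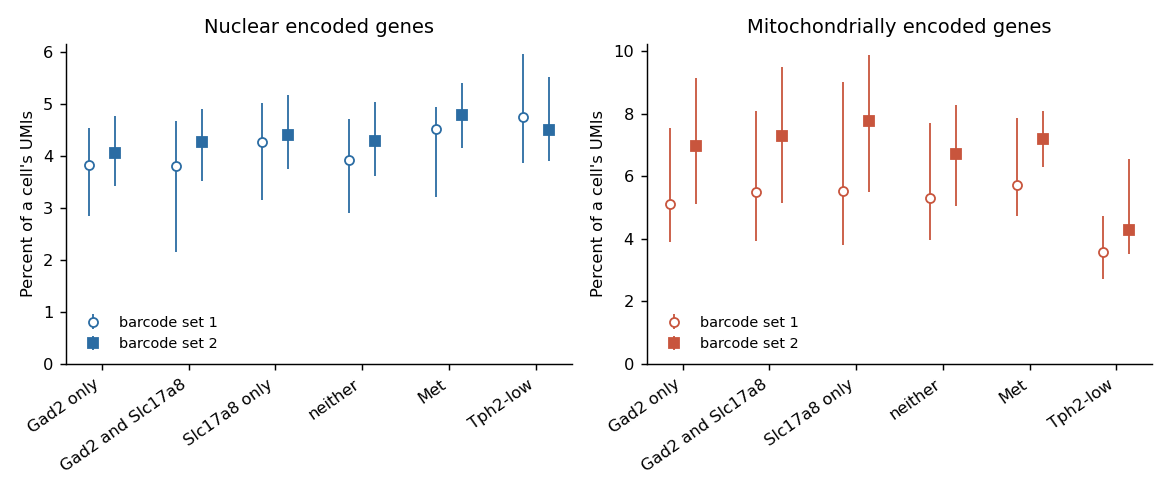
Median share of a cell's UMIs on the nuclear (left) and mitochondrial (right) genes in 6 classes of 10X cells, with open circles for barcode set 1 and squares for set 2 and bars from the 10th to the 90th percentile of cells. Cells low in Tph2 have the lowest mitochondrial median in both sets, at 3.59% and 4.29%.

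Cox7a1 differed between these classes. Its level was 10.1 CPM (9.17 to 11.1) with Slc17a8 alone, 8.10 with both genes, 5.97 with neither and 5.53 CPM (4.92 to 6.20) with Gad2 alone. It was 8.25 CPM in cells low in Tph2 and 4.93 CPM in Met cells, from 31 and 22 UMIs. In the sets, the class with Slc17a8 alone had 8.76 and 10.8 CPM and that with Gad2 alone 4.08 and 6.29 CPM, and in set 1 the class with both (4.61 CPM) was below that with neither (4.92 CPM). After thinning, 17.4% of 674 cells with Slc17a8 alone had a UMI (14.6% to 20.4%) and 8.55% of 866 cells with Gad2 alone (6.77% to 10.6%), beside 40.7% and 23.3% of cells before thinning. At these levels a UMI in a cell may also come from free RNA, for which the table holds no cell type that should lack the gene. Of the 12 cells with a UMI of Cox6a2, 10 were in the class with Slc17a8 alone, which holds 681 of the 2350 cells.

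Genes that work beside the pathway gave the following. In cells low in Tph2, 6 of 17 Krebs cycle genes, 3 of 16 glycolysis genes, 1 of 10 genes of carriers, porins and cytochrome c, and 7 of 13 regulators of mitochondrial DNA and biogenesis with 100 UMIs were higher by 0.5, with medians of 0.38, 0.03, 0.29 and 0.62, beside the 27.3% of all genes that were higher and their median of 0.18. Of the glycolysis genes 2 were lower, beside 13.9% of all genes. The extremes were Fh1, the fumarate hydratase (1.20), Ldhb (1.09), Ldha (-0.79) and Esrra (1.39). Of 30 other assembly factors 6 were higher and 1 lower, and of 76 mitochondrial ribosomal protein genes 11 were higher and 1 lower, with a median of 0.20. Cytosolic ribosomal protein genes stood the other way, with 25 of 97 lower and 1 higher and a median of -0.37. With Gad2 the medians of these lists lay between -0.13 and 0.05, and with Slc17a8 between -0.07 and 0.13. In Met cells the regulators had a median of 0.32, from Ppargc1a, the coactivator of mitochondrial biogenesis, at -0.79 to Gabpa at 0.65. The other assembly factors had 0.22 and the Krebs cycle genes -0.02.

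In the manual cells, sequenced as full-length libraries, reads on genes ranged from 756872 to 7664103 per cell. All 102 members are rows of this table of 24256 genes. The nuclear genes took a median of 3.67% of reads over the 70 cells, and the mitochondrial genes 1.52%. Levels between genes are compared here per kilobase of annotated exon, including exon sequence that also occurs in other genes. The effect of such sequence, described below, on the order of levels was not tested. On that scale mt-Cytb led with a median of 3701 CPM per kb, before mt-Nd1 (2815), Cox4i1 (2102), mt-Co1 (1824), mt-Nd6 (1692), Atp5g3 (1559), Ndufa4 (1528) and Cox8a (1519). The kit of these libraries does not mark the strand, so reads of mt-Nd6 and of transcripts antisense to it cannot be told apart.

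Reads of mt-Nd5, mt-Nd4 and mt-Nd2 were also present in all 70 cells, and the other 6 mitochondrial genes were listed at 0 or near it. In all 70 cells mt-Atp6, mt-Co2, mt-Co3, mt-Nd4l and mt-Atp8 had no read, although the first 3 held ranks 2 to 4 of the 10X table. The nuclear member Atp5sl, which also goes by the symbol Dmac2, had none either, but Dmac2 is a row of its own in this table and has reads, so this 0 concerns the symbol and not the gene. Only 1555 reads fell on mt-Nd3. Its reads were absent from all 33 cells of the 4 Sert::cre groups and present in 10 of 10 P2ry1 cells, 10 of 10 caudal and 8 of 9 rostral Npy2r cells and 8 of 8 Crh cells. The medians of these last 4 groups were 8.30, 8.66, 10.6 and 13.0 CPM, and the labels give no batch, so Cre line and batch cannot be told apart. The paper states that manual libraries were read either single-end or paired-end, on different instruments and at different lengths. It does not name the cells of each kind, so read type cannot be told apart either.

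These genes have copies in the nuclear genome. A stretch of chromosome 1 (chr1:24611535-24616197, minus strand, GENCODE M21 on GRCm38) is annotated with 7 genes that repeat mitochondrial DNA. Over the whole of each copy, Gm10925 is identical to mt-Atp6 at 678 of 678 bases, Gm28661 to mt-Co2 at 681 of 681, Gm28437 to mt-Co3 at 783 of 783 and Gm10222 to mt-Nd4l at 294 of 294. Gm28438 matches mt-Nd3 (chrM:9459-9806) at 344 of 345 bases. Gm28439 covers 876 bases of mt-Nd4, which has 1378, and Gm29216 matches mt-Co1 at 486 of 492 bases. By words of 50 bases, 5 members had at least 95% of their exon sequence in another gene of the annotation, namely mt-Atp6, mt-Co2, mt-Co3, mt-Nd4l and mt-Nd3, and 4 of these had no read. Of the 96 other members with an exon sequence, 1 had none, mt-Atp8. It lies within the 230 bases between mt-Co2 and mt-Atp6 and the start of the latter, and the gap between their copies is 233 bases. Atp5l, with 84.8% of words shared with other genes, had 2285 reads in 66 cells and 4.73 CPM per kb, beside 911 CPM in the 10X table. The part of the copies in the missing reads was not tested. Of the words of mt-Co1, 51.1% were shared with other genes, and of those of mt-Nd4, 62.2%. For mt-Cytb, mt-Nd1 and mt-Nd6 the value was 0%. Levels per kilobase used the whole exon length, so the order of mt-Co1 and mt-Nd4 against these genes is not settled. The first 60 bases of mt-Nd3 and its copy are shown with the 1 base at which they differ in capitals, since it is the only such base in the stretch aligned, and bases 619 to 678 of mt-Atp6 and its copy are shown because none differs.
mt-Nd3: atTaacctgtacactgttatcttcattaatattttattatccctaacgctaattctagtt
Gm28438: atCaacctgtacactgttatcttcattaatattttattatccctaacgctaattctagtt
mt-Atp6: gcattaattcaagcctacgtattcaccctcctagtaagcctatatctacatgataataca
Gm10925: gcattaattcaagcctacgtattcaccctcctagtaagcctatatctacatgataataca

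Given this, the mitochondrial share of the manual cells rests on mt-Co1, mt-Cytb, mt-Nd1, mt-Nd2, mt-Nd4, mt-Nd5 and mt-Nd6 and cannot be set beside that of the 10X cells. Among the 8 groups the median nuclear share lay between 3.43% and 3.91%. From the lowest through the median to the highest cell it was 2.91%, 3.63% and 5.39% in Sert_Pet1_dlDR, 3.41%, 3.58% and 5.40% in Sert_Pet1_dmDR, 3.07%, 3.79% and 4.82% in Sert_Pet1_vmDR, and 3.28%, 3.50% and 4.29% in Sert_Pet1_cDR. It was 3.32%, 3.91% and 4.83% in P2ry1_Pet1_cDR, 3.15%, 3.79% and 4.69% in Npy2r_Pet1_cDR, 3.01%, 3.89% and 4.27% in Npy2r_Pet1_rDR, and 2.95%, 3.43% and 3.69% in Crh_Pet1_rDR. All 8 ranges overlap. In the 3 Sert groups that hold both ages the median was higher at day 63 than at day 90, with 4.26% and 3.21% (dlDR), 3.70% and 3.52% (dmDR) and 4.09% and 3.27% (vmDR), whereas the caudal Sert cells, all of day 63, had 3.50%. Age and animal cannot be told apart.

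The median mitochondrial share was highest in the caudal Sert cells, whereas by summed reads of a group the ventromedial Sert cells (4.07%) stood above the caudal ones (3.52%). That ventromedial sum leans on the cell of 17.1%, with 558262 mitochondrial reads, against 203616 in the next cell. The lowest, median and highest values were 2.39%, 3.69% and 4.84% in Sert_Pet1_cDR, 1.13%, 2.31% and 17.1% in Sert_Pet1_vmDR, 1.54%, 1.79% and 2.90% in Sert_Pet1_dmDR and 0.781%, 1.27% and 4.77% in Sert_Pet1_dlDR. They were 0.844%, 1.44% and 2.20% in P2ry1_Pet1_cDR, 0.847%, 1.25% and 4.48% in Npy2r_Pet1_cDR, 0.00153%, 1.32% and 2.23% in Npy2r_Pet1_rDR and 0.953%, 1.25% and 1.97% in Crh_Pet1_rDR. The lowest caudal Sert cell lay above the highest cell of the P2ry1, rostral Npy2r and Crh groups, and the other groups overlapped with it. All 6 caudal Sert cells were of day 63. In the other Sert groups the median at day 63 and at day 90 was 1.88% and 1.20% (dlDR), 1.73% and 2.86% (dmDR), and 2.89% and 1.51% (vmDR). Oligodendrocyte and astrocyte markers together had a median of 86.8 CPM in the caudal Sert cells, with 0.279 to 470 CPM by cell, against medians of 0.0870 to 62.1 CPM in the other groups, and their part in the result was not tested. Without the cell of 17.1%, which was left out after its value was seen, the ventromedial median was 1.94%, and without the cell of 0.00153% the rostral Npy2r median was 1.42%.

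**Figure D5:**
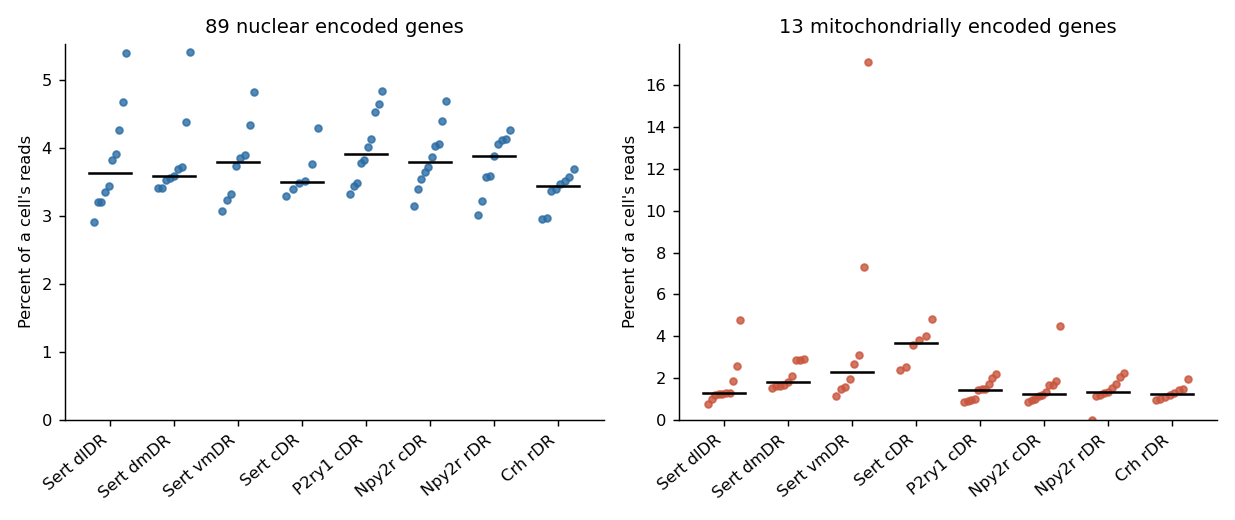
Share of each manual cell's reads on the 89 nuclear (left) and 13 mitochondrial (right) genes in 8 groups; each point is 1 cell and each black line the group's median. Nuclear medians lie between 3.43% and 3.91%, and the mitochondrial median of the caudal Sert cells (3.69%) is the highest.

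By gene, the group medians of most nuclear members lay close together. The log2 ratio of the highest to the lowest group median, with 1 CPM added, had a median of 0.68 over the 82 nuclear members with a median of at least 10 CPM over all cells, 1.82 over the 7 mitochondrial ones and 1.53 over all 7185 such genes, which were not matched to the members in level. Cox4i1, among the narrowest (0.25), had group medians from 1414 CPM (dlDR) to 1687 CPM (P2ry1). Of these nuclear members, Ndufs1 (1.98), Ndufa9 (1.64), Atp5g1 (1.63), Cox7c (1.58) and Ndufaf7 (1.54) lay above the median of all genes. Across all members, the widest were mt-Nd3 (3.81), Cox7a1 (2.94), Atp5l (2.60), mt-Nd6 (2.27) and mt-Nd5 (2.20). For mt-Nd6 the highest median was that of the caudal Sert cells, 2282 CPM (1499 to 2881), and the lowest that of the P2ry1 cells, 471 CPM (235 to 1117). For mt-Nd5 the median was 6936 CPM in the former and 1507 CPM in the Crh cells. Cox7a1 had reads in 7 of 8 ventromedial, 6 of 9 dorsomedial, 3 of 10 dorsolateral and 3 of 6 caudal Sert cells, 3 of 10 P2ry1 cells, 4 of 10 caudal and 1 of 9 rostral Npy2r cells and 5 of 8 Crh cells, so no group was without it. The other minor isoforms had reads in 11 (Cox6b2), 4 (Cox7b2), 1 (Ndufa4l2) and 1 (Cox6a2) of 70 cells. Further symbols of the families appear in this table alone, of which Atp5mpl and Ndufaf8 had reads in 70 of 70 cells and Cox8b and Cox8c in none.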

How the data were processed

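Fluorescent Pet1-lineage neurons were sequenced with 10X Chromium 3' v3 or, after manual sorting, SMART-Seq v4. The authors mapped reads to mm10 with Cell Ranger 3.0.2 and STAR 2.5.4, per the submitters' notes and methods. They deposited raw counts per gene and cell, as UMIs for 10X cells that they had filtered on glial, mitochondrial, ribosomal, Fev and total counts, and as reads for manual cells without filtering. Depth was 12320 to 134079 UMIs and 756872 to 7664103 reads per cell.

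Members and lists were chosen with earlier results of these data known. Shares are member counts over all counts of a cell. Class levels are CPM of summed counts with exact 95% Poisson intervals, ratios have exact binomial intervals, and shares of cells have Clopper-Pearson intervals, all covering counting error only. PCR reads of the manual cells are not independent molecules. Classes used 500 CPM for Tph2 and 50 CPM for Gad2, Slc17a8 and Met, and a member was counted as higher or lower at a log2 ratio of 0.5 with at least 100 UMIs. CV beyond counting is the root of the variance less the mean, over the mean, in cells thinned to 20000 UMIs with random seed 1. Shared sequence was found with words of 50 bases in protein-coding transcripts of members against all GENCODE M21 transcripts. The ratio was tested on simulated data for the Met contrast. The 10X level of 1 marker gene is not reported here. Doublets were not called, since cells are not clustered here. Python 3.11.15, numpy 2.4.6, scipy 1.17.1, pandas 2.3.3 and matplotlib 3.10.9 were used.

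Named are all mitochondrial members, the 3 highest and 2 lowest of each complex, isoform families, the 5 highest and lowest of each contrast, the 5 most variable and the 5 with the widest range of manual medians. Genes named beyond these, such as those by correlation, were chosen after their values were seen. Alternatives covered the denominator, barcode set, class limit, depth, thinning, fold, UMI minimum, low-read cells and group sums.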

Additional observations from a re-analysis of the deposited data

Results flagged for a closer look

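In the manual groups, 24 combinations of group and measure were checked for a cell far from the others, and 7 held one, beside a nominal rate of about 1 in 20. The measures of a group are not independent, since the log2 ratio is made from the nuclear and mitochondrial reads. The 7 therefore cannot be set against that rate. For the nuclear share, cell 4 of Sert_Pet1_dmDR had 5.40%, with the next at 4.38%. For the mitochondrial share, cell 1 of Sert_Pet1_dlDR had 4.77% (next 2.59%), cell 8 of Sert_Pet1_vmDR 17.1% (next 7.32%) and cell 1 of Npy2r_Pet1_cDR 4.48% (next 1.88%), each the highest of its group. Cell 5 of Npy2r_Pet1_rDR was the lowest, with 0.00153% (next 1.12%): 5 reads on mt-Co1, 6 on mt-Nd4, 4 on mt-Nd1, 3 on mt-Nd2, 2 on mt-Nd6 and 1 each on mt-Cytb and mt-Nd5. The log2 ratio of mitochondrial to nuclear reads set 2 of these cells apart, at 0.032 in cell 1 of Npy2r_Pet1_cDR (next -1.04) and -11.31 in cell 5 of Npy2r_Pet1_rDR (next -1.82).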

How the results depend on the processing

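No paired analysis was possible because no sample or cell carries an animal, and no result comes from a test. Values here are log2 ratios unless given in percent, with the nuclear value before the mitochondrial one. In barcode set 1 and set 2 alone, the nuclear ratio was 0.28 and 0.10 for Tph2, -0.12 and -0.10 for Gad2, 0.13 and 0.094 for Slc17a8, 0.12 and 0.17 for Met and 0.23 and -0.076 (reversed) for depth. The mitochondrial ratio was -0.53 and -0.58 for Tph2, -0.058 and -0.063 for Gad2, 0.051 and 0.11 for Slc17a8, 0.11 and -0.028 (reversed) for Met and -0.27 (reversed) and 0.36 for depth. Median shares were 4.04% and 4.27% (nuclear) and 5.22% and 7.10% (mitochondrial). At 0.5 and 2 times the class limit, the nuclear ratio was 0.17 and 0.16 for Tph2, -0.12 and -0.083 for Gad2 and 0.10 and 0.10 for Slc17a8, and 0.16 for Met at 2 times. The mitochondrial ratio was -0.65 and -0.50 for Tph2, -0.058 and -0.011 for Gad2, 0.12 and 0.11 for Slc17a8 and -0.0085 (reversed) and 0.018 for Met. As the mean of the 3 depth groups, the ratios were 0.043 and -0.18 for Tph2, where 6 deeper cells weigh more than 125 shallow ones, -0.11 for Gad2 (nuclear), 0.12 and 0.084 for Slc17a8 and 0.096 and 0.096 for Met. With mitochondrial UMIs out of the denominator, the nuclear ratio was 0.14 for Tph2, -0.11 for Gad2, 0.12 for Slc17a8 and 0.048 for depth, the mitochondrial depth ratio was 0.22, and the shares were 4.48% and 6.85%. With depth counted over other genes, the depth ratios were 0.011 and 0.13. Thinned cells had a nuclear median of 4.2%. At a fold of 0.3, 48 members passed for Tph2 (beside 61% of all genes), 2 for Gad2 (18.7%) and 21 for Met (50.2%), and at a fold of 1, 0 passed for Tph2 (16.2%), 0 for Gad2 (3.38%), 0 for Slc17a8 (5.65%) and 1 for Met (15.5%). Without a UMI minimum, 2 passed for Gad2 and 3 for Slc17a8. In set 2 alone 2 passed for Slc17a8, and in set 1 alone 3 for Met. No share over all genes is given without the UMI minimum or within a set, so these counts are not read as a result about the members. In all, 53 values, every manual share among them, stayed within their spread (1 SD between cells for the manual groups, which is wide where 1 cell stands apart), 63 moved and 4 reversed, and the cause was not tested. By summed reads, the mitochondrial share of Sert_Pet1_vmDR was 4.07% in place of a median of 2.31%. Depth limits the rare isoforms, which rest on few UMIs. The groups of manual cells are small, and no animal can be left out.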

Other observations

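Outside the pathway, 3485 genes with enough UMIs were ranked by Spearman's rho of their CPM with each share over the 2350 cells, which share library, depth and denominator. With the nuclear share the 5 highest were Ppia (0.65), a cyclophilin, Stmn3 (0.62), Mrpl20 (0.58), a mitochondrial ribosomal protein, Gabarapl2 (0.57) and Fabp5 (0.56), and the lowest Pclo (-0.52), the presynaptic scaffold Piccolo, and Vat1l (-0.47). Tph2 held rank 2663, at -0.15. With the mitochondrial share the highest were Cntn1 (0.47), Syt4 (0.45), Pgm2l1 (0.44), Napb (0.44) and Rps12 (0.44), and Tph2, at 0.41, held rank 12. The lowest were Ly6h (-0.57), Gm42418 (-0.57), Snhg11 (-0.54) and Ubb (-0.52). From the 5th to the 95th percentile, the genes ran from -0.27 to 0.31 with the nuclear and from -0.28 to 0.22 with the mitochondrial share. These genes were chosen after their values were seen.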
